A study of Mus musculus with 5 samples.

Results

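Scavenger receptors of the lymph node sinuses were examined in lymphatic endothelial cells (LECs), the cells that line those sinuses, as 8 genes chosen by name: Mrc1, Marco, Stab1, Stab2, Msr1, Scarf1, Scarb1 and Colec12. All 8 were among the 27843 genes of the count table, and all 8 were among the 15874 genes that passed the filter on low counts. The knockout group was 2 libraries of LECs from Ccl19-Cre Rankl flox/flox mice, in which Cre is driven by the Ccl19 promoter and removes RANKL from stromal cells that express Ccl19, and the control group was 3 libraries from Rankl flox/flox mice, labelled WT and with no Cre named. All animals were on the C57BL/6 background and 8 weeks old, and both groups carried the floxed alleles. LECs were sorted from lymph nodes as cells without CD45 and TER119 and with CD31 and podoplanin. The p-values of the gene tests set the difference between groups against the spread of these 5 libraries within their groups. The number of animals behind each library is not in the labels, nor is litter, so that spread is between libraries and not between known animals.

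Scavenger receptors are surface proteins that bind modified lipoproteins, bacteria, polysaccharides and cell debris and carry them into the cell for breakdown. They fall into structural classes that share little sequence: class A receptors with a collagen-like stalk (MARCO, MSR1, COLEC12), class B receptors that span the membrane at both ends and exchange lipid (SCARB1), a class F receptor with EGF-like repeats (SCARF1), the large class H stabilins (STAB1, STAB2) and the mannose receptor MRC1, which carries C-type lectin domains. In a lymph node, LECs of the medullary and cortical sinuses take up material from the passing lymph, and several of these receptors are used as marks of those cells. MRC1, MARCO and MSR1 are also well known on macrophages.

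Library totals were 53301671 and 59725200 counts in the knockout libraries and 52839375 to 70171307 in the control libraries. Levels are given as CPM, the count of a gene scaled to the size of its library after TMM correction for composition. Tnfsf11, which encodes RANKL, had 9 and 0 reads in the knockout libraries, against 27, 13 and 9 reads in the control libraries. Because Cre acts in other stromal cells, these reads do not check the genotype. The sort genes Pecam1 (CD31) and Pdpn (podoplanin) were present in all libraries, at 1311.5 to 1347.4 CPM and 88.4 to 124.5 CPM, and Ptprc (CD45) stood at 2.15 to 2.89 CPM. Over all genes, 516 rose and 634 fell in the knockout libraries.

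Of the 8 receptors, 3 fell in the LECs of knockout mice (Mrc1, Marco and Stab2) and 0 rose. For the other 5, edgeR's quasi-likelihood test gave an adjusted p above 0.05, where adjustment was by Benjamini-Hochberg over all genes. The count of receptors that rose was also 0 at an unadjusted p under 0.05 by edgeR, with DESeq2 and with limma-voom. By the same 3 measures, 2036, 1254 and 546 of all 15874 genes rose. Over all genes, 3.99% were called lower and 3.25% higher, and 7.24% were called in either direction. The median log2 fold change, knockout minus control, was -0.29 over the 8 receptors, with 6 below 0, and -0.0015 over all genes tested. Sorted pools of cells do not separate less RNA per cell from a smaller share of the cells that carry it. The 8 receptors together made 4273.7 and 4747.9 CPM in the knockout libraries, against 7839.3, 7027.2 and 7231.4 CPM in the control libraries, and the 2 ranges lay apart. The mean sum in knockout was 61.2% of that in control. Most of the gap in reads came from Marco, with a difference of means of -1394.9 CPM, and from Stab2, with -908.8 CPM.

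**Figure D1:**
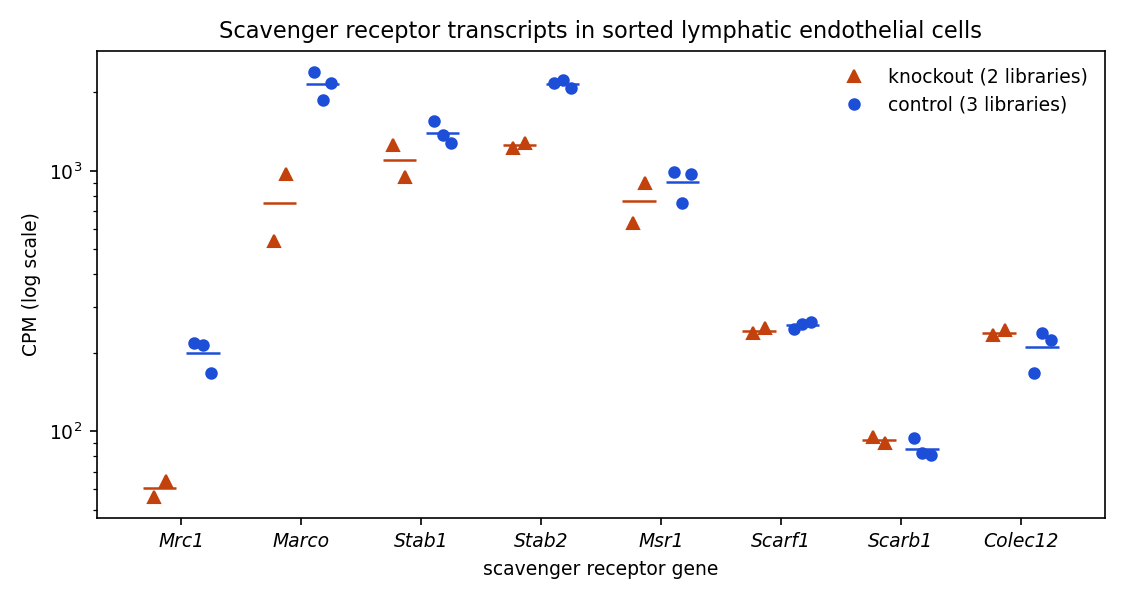
CPM (vertical axis, log scale) of the 8 scavenger receptor genes, 1 point per library, with knockout libraries as triangles and control libraries as circles and a bar at each group mean. The groups lie apart for Mrc1, Marco, Stab2 and, narrowly, Stab1, and overlap for the other 4 genes.

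Mrc1 encodes the mannose receptor (CD206), which binds mannose-rich sugars and sulfated glycans. Mrc1 (ENSMUSG00000026712, chromosome 2, 14229392 to 14332057, plus strand) had 56.1 and 64.5 CPM in knockout libraries 1 and 2, against 217.9, 215.1 and 167.0 CPM in control libraries 1, 2 and 3. Both knockout values lay far below the lowest control value, and the knockout libraries differed little from each other. The log2 fold change was -1.73 ± 0.15 (SE), with a 95% interval of -2.08 to -1.38 and an adjusted p of 0.0095 by edgeR's quasi-likelihood test. The fitted level in knockout was 3.32-fold lower. By p, Mrc1 ranked 14 among the 15874 genes. It kept its call with each library left out (log2 fold change -1.85 to -1.64, adjusted p 0.0042 to 0.038), including without control 3, where 11 genes of the whole table were called.

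Marco encodes a trimeric class A receptor for bacteria and other particles. Marco (ENSMUSG00000026390, chromosome 1, 120474538 to 120505024, minus strand) had 537.6 and 973.1 CPM in knockout libraries 1 and 2, against 2395.1, 1875.4 and 2180.2 CPM in control libraries 1, 2 and 3. The groups did not overlap, but knockout 1 was well below knockout 2. The log2 fold change was -1.51 ± 0.26 (SE), with a 95% interval of -2.13 to -0.89 and an adjusted p of 0.025 by edgeR's quasi-likelihood test. It was -1.15 without knockout 1 and -2.004 without knockout 2, and passed in both fits. Marco lost its call without control 1 (-1.42), without control 2 (-1.60) and without control 3 (-1.50), with adjusted p of 0.074, 0.067 and 0.10.

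The stabilins STAB1 and STAB2 are paralogous giant receptors of sinusoidal endothelium. STAB2 is a main clearance receptor for hyaluronan, the glycosaminoglycan that lymph carries out of tissues, and STAB1 takes up other ligands, among them the matrix protein SPARC. Stab2 (ENSMUSG00000035459, chromosome 10, 86841198 to 87008025, minus strand) had 1225.0 and 1283.0 CPM in knockout libraries 1 and 2, against 2178.4, 2237.6 and 2072.2 CPM in control libraries 1, 2 and 3. Libraries within each group lay close together, and the groups lay far apart. The log2 fold change was -0.79 ± 0.10 (SE), with a 95% interval of -1.03 to -0.54 and an adjusted p of 0.015 by edgeR's quasi-likelihood test. Leaving out single libraries moved it between -0.82 and -0.76, and its adjusted p was above 0.05 when control 2 (-0.76) or control 3 (-0.82) was dropped.

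Stab1 (ENSMUSG00000042286, chromosome 14, 31139013 to 31168641, minus strand) had 1260.0 and 948.5 CPM in knockout libraries 1 and 2, against 1552.2, 1367.9 and 1273.2 CPM in control libraries 1, 2 and 3. Both knockout values were below all controls, but knockout 1 was close to control 3. Its log2 fold change of -0.34 ± 0.16 (SE) did not pass, with a 95% interval of -0.71 to 0.03 and an adjusted p of 0.22 by edgeR's quasi-likelihood test. It stood at -0.56 without knockout 1 and -0.15 without knockout 2. The knockout library with the lower Marco level was thus the one with the higher Stab1 level. Counting Stab1, 4 of the 8 receptors had both knockout libraries below all controls and 0 had both above, while 22.5% of all genes tested lay wholly below, 22.8% wholly above and 45.4% either way.

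Within a library, the stabilins can be compared as a ratio of their levels per kilobase of exon. The ratio of Stab2 to Stab1 was 1.14 and 1.59 in the knockout libraries, against 1.65, 1.92 and 1.91 in the control libraries. All knockout ratios were lower than all control ratios, at a log2 difference of -0.44 between group means. The exact two-sided permutation test over the 10 ways to pick 2 of 5 libraries gave p = 0.1, which is the smallest it can give (0.15 adjusted over the 3 ratios tested). The ratio of Mrc1 to Stab1 was 0.0719 and 0.11 in the knockout libraries, against 0.227, 0.254 and 0.212 in the control libraries, a log2 difference of -1.37 with the same exact p of 0.1. The ratio of Marco to Mrc1 was 31.7 and 49.9 in the knockout libraries, against 36.4, 28.9 and 43.2 in the control libraries, and these overlapped (log2 difference 0.16, exact p = 0.6).

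**Figure D2:**
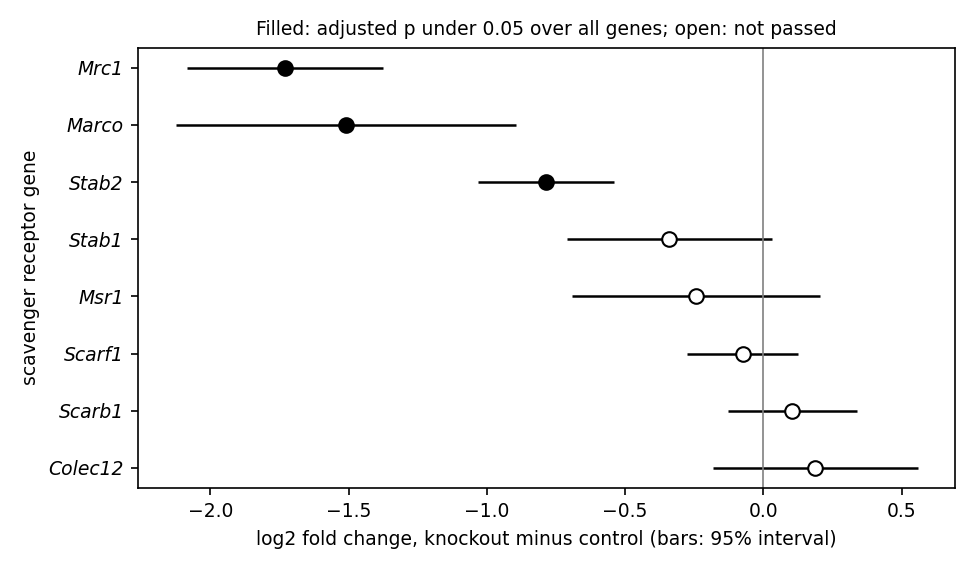
Log2 fold change, knockout minus control (horizontal axis), of the 8 scavenger receptor genes with its 95% interval. Filled points passed an adjusted p of 0.05 over all genes; the intervals of Mrc1, Marco and Stab2 lie wholly below 0, and those of the other 5 include 0.

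RefSeq promoter windows on GRCm38.p6, the build of mm10, were at hand for 4 of the 8 genes, the 3 that fell and Stab1. They are shown to set the letters upstream of the 3 genes that fell beside those of the paralog Stab1, which did not pass. Each line runs 5′ to 3′ on the strand of the gene and starts 250 bases before the RefSeq transcript start, and it stops at the last base before the GENCODE gene. Capitals mark GAGGAA on either strand, the core of sites for the ETS factor PU.1, and also TGCTGA, a part of sites for MAF factors.
Mrc1, chr2:14229164-14229391, plus strand: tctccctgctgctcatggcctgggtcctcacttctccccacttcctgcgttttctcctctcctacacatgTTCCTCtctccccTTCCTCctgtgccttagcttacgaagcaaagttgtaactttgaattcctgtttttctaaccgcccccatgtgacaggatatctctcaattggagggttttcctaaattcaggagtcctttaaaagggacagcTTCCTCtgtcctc
Marco, chr1:120505025-120505274, minus strand: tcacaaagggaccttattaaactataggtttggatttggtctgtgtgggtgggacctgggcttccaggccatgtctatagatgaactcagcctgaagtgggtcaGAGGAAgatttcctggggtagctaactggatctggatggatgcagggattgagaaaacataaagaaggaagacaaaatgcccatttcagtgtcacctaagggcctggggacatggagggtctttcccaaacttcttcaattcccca
Stab2, chr10:87008026-87008192, minus strand: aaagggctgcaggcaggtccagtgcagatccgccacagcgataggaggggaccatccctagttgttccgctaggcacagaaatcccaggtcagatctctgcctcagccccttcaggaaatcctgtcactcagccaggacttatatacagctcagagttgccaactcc
Stab1, chr14:31168642-31168891, minus strand: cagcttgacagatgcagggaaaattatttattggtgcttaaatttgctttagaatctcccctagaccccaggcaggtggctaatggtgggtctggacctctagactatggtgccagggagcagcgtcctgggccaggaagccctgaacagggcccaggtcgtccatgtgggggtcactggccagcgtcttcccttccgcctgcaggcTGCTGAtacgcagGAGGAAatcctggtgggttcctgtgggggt
In the full windows of 300 bases, searched on both strands, GAGGAA matched 3 times for Mrc1, 1 time for Marco, 1 time for Stab1 and 0 times for Stab2, and 28.3% of the 32851 windows in the table hold it. TGCTGA matched 1 time for Stab1 and in none of the other 3, against 19.5% of all windows. The letters AGATAA, found in 11.2% of all windows, and the NF-kB consensus, found in 4.51%, matched in none of the 4. No listed motif was thus common to the 3 genes that fell, and the matches describe letters in the windows only.

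The other class A receptors did not pass. Msr1, which encodes the macrophage scavenger receptor SR-A (ENSMUSG00000025044, chromosome 8, 39581685 to 39642673, minus strand), had 629.4 and 894.9 CPM in knockout libraries 1 and 2, against 987.5, 751.0 and 970.8 CPM in control libraries 1, 2 and 3. Knockout 1 was below all controls and knockout 2 lay among them. The log2 fold change was -0.24 ± 0.19 (SE, 95% interval -0.69 to 0.20), -0.53 without knockout 2 and -0.02 without knockout 1. Msr1 and Marco were both lower in knockout 1 than in knockout 2. Colec12 (ENSMUSG00000036103) encodes a collectin with a collagen-like stalk that is well known in vascular endothelium. It had 233.2 and 245.2 CPM in the knockout libraries, against 166.9, 238.9 and 224.3 CPM in the control libraries. The knockout libraries lay within or just above the range of controls 2 and 3, and control 1 was the low one. Its log2 fold change was 0.19 ± 0.16 (SE, 95% interval -0.18 to 0.56), and 0.05 without control 1.

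Scarf1, which encodes a class F receptor of endothelium for modified lipoproteins and apoptotic cells (ENSMUSG00000038188, chromosome 11, 75513540 to 75526582, plus strand), had 237.7 and 248.9 CPM in the knockout libraries, against 247.4, 258.7 and 262.8 CPM in the control libraries. The groups overlapped by a narrow margin. The log2 fold change of -0.07 ± 0.08 (SE) had a narrow 95% interval of -0.28 to 0.13. Scarb1 encodes the receptor through which cells exchange cholesterol with high-density lipoprotein (HDL). Scarb1 (ENSMUSG00000037936, chromosome 5, 125277087 to 125341094, minus strand) had 94.7 and 89.8 CPM in the knockout libraries, against 94.0, 82.6 and 80.8 CPM in the control libraries, and the groups overlapped. Its log2 fold change was 0.10 ± 0.10 (SE, 95% interval -0.13 to 0.34). The adjusted p of Msr1, Colec12, Scarf1 and Scarb1 was 0.46, 0.50, 0.63 and 0.55 by edgeR's quasi-likelihood test.

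**Figure D3:**
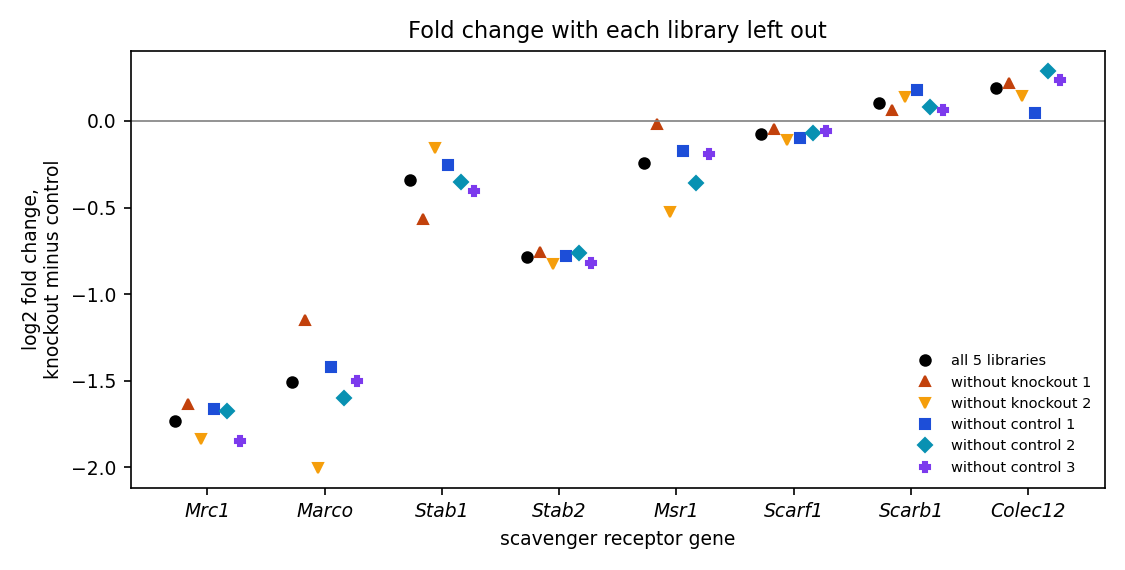
Log2 fold change, knockout minus control (vertical axis), of each scavenger receptor gene with all 5 libraries and with each library left out in turn. Mrc1 and Stab2 moved little, Marco ranged from -2.004 to -1.15, Stab1 from -0.56 to -0.15 and Msr1 from -0.53 to -0.02.

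Levels of different genes are comparable only per length, here as CPM per kilobase of annotated exon. In the knockout libraries the order was Marco (392.4 ± 160.0, SD, n = 2), Stab2 (143.2 ± 4.68), Msr1 (120.1 ± 29.6), Stab1 (107.3 ± 21.4), Scarf1 (84.3 ± 2.74), Colec12 (27.4 ± 0.977), Scarb1 (10.9 ± 0.408) and Mrc1 (9.47 ± 0.936). In the control libraries it was Marco (1117.0 ± 135.7, SD, n = 3), Stab2 (247.0 ± 9.58), Msr1 (142.4 ± 20.8), Stab1 (135.9 ± 13.8), Scarf1 (88.8 ± 2.77), Mrc1 (31.4 ± 4.49), Colec12 (24.1 ± 4.36) and Scarb1 (10.1 ± 0.837). The order changed only in the place of Mrc1, which stood at rank 8 in knockout and rank 6 in control. Neighbours whose libraries overlapped were Stab2 with Msr1 and Msr1 with Stab1 in knockout, and Msr1 with Stab1 and Mrc1 with Colec12 in control. Shares of summed CPM are not corrected for length, so they compare the groups and do not rank the genes. Marco made up 12.6% and 20.5% of the summed CPM of the 8 receptors in the knockout libraries, against 30.6%, 26.7% and 30.1% in the control libraries. Stab1 made up 29.5% and 20.0% in the knockout libraries, against 19.8%, 19.5% and 17.6% in the control libraries.

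**Figure D4:**
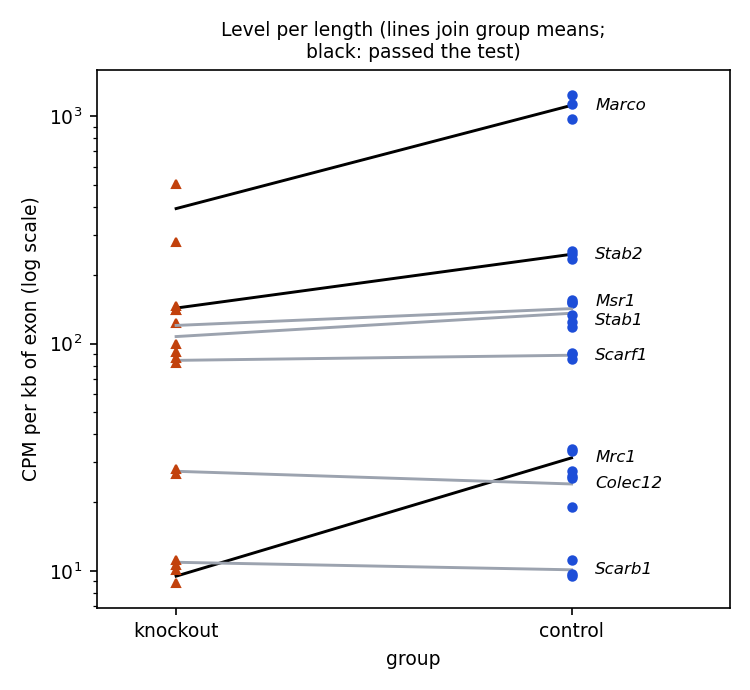
CPM per kilobase of exon (vertical axis, log scale) of the 8 scavenger receptor genes in the knockout (triangles) and control (circles) libraries, with lines joining the group means. Black lines mark Mrc1, Marco and Stab2, which passed the test; Mrc1 stands lowest in knockout and above Colec12 and Scarb1 in control.

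Beyond the 8 genes, 20 of 21 other scavenger and clearance receptors could be tested. Of these 1 rose and 3 fell, against 3.25% higher and 3.99% lower over all genes. The median log2 fold change of the 20 was 0.07. Cd163, a haemoglobin scavenger receptor of macrophages, had 0 reads in all 5 libraries. Olr1, which encodes the receptor LOX-1 for oxidised lipoprotein, rose to 284.7 and 256.4 CPM in the knockout libraries, against 147.2, 150.8 and 170.5 CPM in the control libraries (log2 fold change 0.79 ± 0.10, SE). The call did not hold when control 2 (0.77) or control 3 (0.86) was dropped. Scarb2, a class B protein of the lysosomal membrane, fell to 134.6 and 141.4 CPM in the knockout libraries, against 185.2, 185.0 and 191.9 CPM in the control libraries (-0.44 ± 0.08). Scarb2 lost its call without each control library (-0.45 to -0.43) and with a correction for GC content and exon length (-0.36). Cd36, the remaining class B gene, which encodes a fatty acid and thrombospondin receptor, had 2386.5 and 1708.1 CPM in the knockout libraries, against 778.9, 1444.8 and 1053.2 CPM in the control libraries. The groups lay apart, but Cd36 did not pass (0.91 ± 0.26, adjusted p = 0.084 by edgeR), while it passed with DESeq2 (adjusted p = 0.0044). The class A gene Scara3 did not pass with edgeR either (-0.80 ± 0.22, adjusted p = 0.070), and passed with DESeq2 (adjusted p = 0.0051).

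The remaining 2 of the 3 falls in that list belong to the same family as Mrc1. The mannose receptor family has Mrc1, Mrc2, Pla2r1 and Ly75 as its members, and this grouping was made after the values were seen. Pla2r1 (60417543 to 60553308) and Ly75 (60292103 to 60383303) both lie on the minus strand of chromosome 2. Whether their falls are separate was not tested. Pla2r1, which encodes a receptor of secreted phospholipase A2, fell to 1.84 and 1.81 CPM in the knockout libraries, against 6.60, 7.61 and 6.27 CPM in the control libraries (log2 fold change -1.90 ± 0.20, SE, edgeR adjusted p = 0.0099). Ly75, which encodes the endocytic receptor DEC-205, fell to 19.2 and 15.2 CPM in the knockout libraries, against 26.7, 30.6 and 26.3 CPM in the control libraries (-0.69 ± 0.14, edgeR adjusted p = 0.036). Mrc2, the collagen receptor of the family, stayed under 1 CPM, at 0.493 and 0.705 CPM in the knockout libraries, against 0.282, 0.0961 and 0.616 CPM in the control libraries, and the groups overlapped. Ly75 lost its call with library totals alone (-0.69), with the GC and length correction (-0.60), without each control library (-0.74 to -0.62) and without knockout 2 (-0.54), and Pla2r1 lost its call without control 3 (-1.96).

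Pla2r1 was also the gene whose profile lay nearest to that of Mrc1 by the distance used here. Likeness was the root mean square distance in log2 of CPM plus 0.5 over the 5 libraries, each gene centred on its control mean, among 10790 genes. The added 0.5 shrinks the falls of genes at few CPM. Pla2r1, Col4a6 and Tmem151b had means of 1.82, 1.94 and 1.91 CPM in knockout, so their places may depend on it. The 5 nearest to Mrc1 were Pla2r1 (0.13), Tmem132e (0.171), the type IV collagen chain gene Col4a6 (0.18), Tmem151b (0.205) and the elastin gene Eln (0.209). The 5 nearest to Marco were Nudt17 (0.0771), Tenm3 (0.115), the complement C5 gene Hc (0.118), the latent TGF-beta binding protein gene Ltbp2 (0.121) and the vitamin D receptor gene Vdr (0.139). The 5 nearest to Stab2 were Dcaf5 (0.044), Plxdc2 (0.0501), Pik3cb (0.0528), Chrdl1 (0.0564) and Agmo (0.0564). These lists name neighbours in 5 libraries, and their fold changes follow from the choice.

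Of 26 endocytic machinery genes, for clathrin coats, adaptors and early endosomes, 1 rose and 0 fell, against 3.25% higher and 3.99% lower over all genes, with a median log2 fold change of -0.07. At an unadjusted p under 0.05 by edgeR, 4 were higher and 6 lower. DESeq2 called 4 higher and 3 lower, and limma-voom called 3 higher and 0 lower. Among all 15874 genes, 2036 were higher and 2162 lower at an unadjusted p under 0.05 by edgeR. DESeq2 called 1254 and 1466 of them, and limma-voom 546 and 657. The light chain gene Cltb rose to 97.4 and 117.6 CPM in the knockout libraries, against 68.2, 75.3 and 77.6 CPM in the control libraries (0.54 ± 0.11, SE), and lost its call without each control library (0.49 to 0.58) and without knockout 2 (0.40). The engulfment adaptor Gulp1, which binds the tail of stabilins (1.27 ± 0.30, adjusted p = 0.051 by edgeR), and the early endosome GTPase gene Rab5c (0.89 ± 0.21, adjusted p = 0.055 by edgeR) did not pass, and both passed with DESeq2 and limma-voom.

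Of 13 genes that make, bind or degrade hyaluronan, the ligand of STAB2, 2 rose and 1 fell. Their median was -0.16, and over all genes 3.25% were called higher and 3.99% lower. Cemip2, which encodes a cell surface hyaluronidase, fell to 2737.9 and 3336.8 CPM in the knockout libraries, against 4738.5, 4450.1 and 4859.1 CPM in the control libraries (log2 fold change -0.62 ± 0.13, SE). The call was lost with the GC and length correction (-0.47), without each control library (-0.66 to -0.60) and without knockout 1 (-0.49). The hyaluronan receptor gene Lyve1 (-0.57 ± 0.18, adjusted p = 0.11 by edgeR) had 2440.7 and 3663.2 CPM in the knockout libraries, against 4555.9, 4321.3 and 4717.1 CPM in the control libraries, and did not pass, although the groups lay apart. It passed with DESeq2 (adjusted p = 0.012) and without knockout 2 (-0.90). Cd44, another receptor, was at -0.59 ± 0.23 and did not pass. The hyaluronan synthase gene Has1 rose to 33.0 and 14.0 CPM in the knockout libraries, against 4.24, 7.66 and 2.81 CPM in the control libraries (2.26 ± 0.47), with 1.501 and no call without knockout 1, no call without each control library (1.98 to 2.73) and none without a filter on low counts. The hyaluronan binding protein gene Tnfaip6 rose to 38.4 and 45.1 CPM in the knockout libraries, against 26.6, 25.8 and 28.9 CPM in the control libraries (0.62 ± 0.11), and lost its call without each control library (0.59 to 0.67).

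Of 9 tested genes of lipoprotein handling, the field in which SCARB1 acts, 1 rose and 1 fell. Their median was -0.22, and over all genes 3.25% were called higher and 3.99% lower. Abca1, which encodes the transporter that loads cholesterol onto lipid-poor apolipoprotein, fell to 343.9 and 285.1 CPM in the knockout libraries, against 742.3, 634.4 and 553.3 CPM in the control libraries (log2 fold change -1.03 ± 0.16, SE). The call did not hold when control 2 (-1.04) or control 3 (-1.13) was dropped. The phospholipid transfer protein gene Pltp rose to 15.7 and 16.4 CPM in the knockout libraries, against 8.11, 10.6 and 6.60 CPM in the control libraries (0.93 ± 0.20), and lost its call with every library left out in turn (0.78 to 1.13), with library totals alone (0.93) and with the GC and length correction (0.83). Pltp shares 19.3% of its exon bases with Ctsa on the opposite strand, and the kits do not mark strand. The cholesterol transporter gene Abcg1 (0.63 ± 0.22) did not pass.

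Transcription factors known for endothelial fate or for scavenger receptor genes gave 1 rise and 2 falls among 14 tested. Their median was -0.23, and over all genes 3.25% were called higher and 3.99% lower. Gata4, a factor of liver sinusoidal endothelium, fell to 27.3 and 43.0 CPM in the knockout libraries, against 76.9, 65.6 and 65.5 CPM in the control libraries (log2 fold change -0.98 ± 0.20, SE), and lost its call without each control library (-1.02 to -0.90). Prox1, the lymphatic fate factor, fell to 884.1 and 851.7 CPM in the knockout libraries, against 1577.1, 1383.9 and 1416.4 CPM in the control libraries (-0.75 ± 0.11), a call that did not hold when control 2 (-0.79) or control 3 (-0.77) was dropped. Pparg, a factor that raises Mrc1 and Cd36 in macrophages, rose to 48.6 and 50.3 CPM in the knockout libraries, against 34.9, 38.2 and 36.5 CPM in the control libraries (0.44 ± 0.09), and lost its call without each control library (0.41 to 0.47), without knockout 2 (0.41) and with the GC and length correction (0.37). Gata2 (0.43 ± 0.11, adjusted p = 0.057 by edgeR) and Tfeb (0.64 ± 0.17, adjusted p = 0.069 by edgeR) did not pass. Both passed with DESeq2 (adjusted p = 0.0069 for Gata2 and 0.011 for Tfeb) and when no filter on low counts was set (edgeR adjusted p = 0.034 and 0.037), and Gata2 also with library totals alone (0.048) and with a filter of 1 CPM in 2 libraries (0.046).

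A list of 7 further sinus LEC transcripts held 1 gene that rose and 1 that fell. Their median was 0.06, and over all genes 3.25% were called higher and 3.99% lower. The lectin gene Clec4g fell to 34.6 and 65.8 CPM in the knockout libraries, against 142.9, 157.2 and 165.2 CPM in the control libraries (log2 fold change -1.63 ± 0.26, SE), and like Marco it was lower in knockout 1 and lost its call without each control library (-1.68 to -1.58). The potassium channel gene Kcnj8 rose to 50.9 and 53.0 CPM in the knockout libraries, against 36.6, 27.6 and 32.5 CPM in the control libraries (0.69 ± 0.13), a call that did not hold when control 2 (0.59) or control 3 (0.69) was dropped. Ptx3, which encodes a soluble pattern recognition protein, had 43.2 and 38.3 CPM in the knockout libraries, against 19.9, 29.4 and 18.2 CPM in the control libraries, and did not pass (0.86 ± 0.21, adjusted p = 0.055 by edgeR), while it passed with DESeq2 and limma-voom. Litaf was at 0.37 ± 0.10 and did not pass, and it passed with DESeq2 (adjusted p = 0.0022).

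Markers of other cells in the sort were measured beside these receptors. Of 16 macrophage markers 15 were in the table and 13 were tested. Of the 13, 1 rose and 2 fell, against 3.25% higher and 3.99% lower over all genes, and their median was -0.67. The summed level of the 15 was 396.1 and 528.7 CPM in the knockout libraries, against 550.8, 299.6 and 418.9 CPM in the control libraries. Cd14 supplied nearly all of it. The 14 others together made 11.7 and 15.5 CPM in the knockout libraries, against 24.9, 24.6 and 18.8 CPM in the control libraries. Mpeg1 fell to 0.621 and 0.516 CPM in the knockout libraries, against 2.34, 3.67 and 2.21 CPM in the control libraries. Csf1r, the receptor gene of the macrophage growth factor, fell to 0.365 and 0.138 CPM in the knockout libraries, against 1.73, 1.11 and 1.67 CPM in the control libraries. Csf1r shares 15.1% of its exon bases with Hmgxb3 on the opposite strand, and the kits do not mark strand. Adgre1 had 15 and 20 reads in the knockout libraries, against 0 in each control library, and was the 1 that rose. The calls of Mpeg1 and Csf1r were lost without each control library, and that of Adgre1 with any library left out. DESeq2 gave no adjusted p for Adgre1, so it made no call there. None of the 15 was at 0 in all libraries. The part of macrophage RNA in the levels and falls of Mrc1 and Marco was not tested.

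Of 11 blood endothelial markers, 8 rose and 0 fell, against 3.25% higher and 3.99% lower over all genes. The counts of these markers were the same at an unadjusted p under 0.05 by edgeR, with DESeq2 and with limma-voom. The markers had a median of 1.31. Their summed level was 3236.4 and 4139.2 CPM in the knockout libraries, against 3079.6, 2791.9 and 3100.3 CPM in the control libraries. Plvap, the most abundant of them at 2455.5 to 3627.7 CPM, did not pass (0.25, adjusted p = 0.32 by edgeR). Cd300lg did not pass either (0.12, adjusted p = 0.56 by edgeR). Without Plvap the sum was 449.6 and 511.4 CPM in the knockout libraries, against 270.8, 336.4 and 299.7 CPM in the control libraries. The largest rises included Sox17 (2.94 ± 0.46), Ly6c1 (2.70 ± 0.35) and Aqp7 (2.67 ± 0.30). Sox17 shares 16.8% of its exon bases with Gm37587 on the opposite strand. Of the 11 blood endothelial markers 5 were called higher without control 1, 4 without control 2 and 0 without control 3. Of 11 markers of fibroblastic reticular cells and pericytes 1 rose (Acta2, 35.8 CPM in knockout 1 and 4.5 CPM in knockout 2, against 1.76 to 1.94 CPM in the control libraries) and 0 fell. Acta2 lost its call without each control library, with no filter on low counts, with the GC and length correction and with limma-voom. At an unadjusted p under 0.05 by edgeR 3 were higher and 0 lower, with DESeq2 2 and 0, and with limma-voom 0 and 0. Among all genes the same counts were 2036 and 2162, 1254 and 1466, and 546 and 657. The sum of these 11 markers was 1120.2 CPM in knockout 1 and 520.7 CPM in knockout 2, against 349.4 to 529.9 CPM in the control libraries. Of 11 tested markers of other leukocytes, 0 passed (0 higher and 1 lower at an unadjusted p under 0.05 by edgeR, and 0 with DESeq2 or limma-voom). Of 9 lymphatic endothelial markers 2 rose (Mmrn1, 1.56 ± 0.25, and Sox18, 0.91 ± 0.15) and 1 fell (Prox1). Their sum was 11458.3 and 10030.0 CPM in the knockout libraries, against 9614.2 to 10744.6 CPM in the control libraries. Without Lyve1, the most abundant, it was 9017.6 and 6366.9 CPM, against 5292.9 to 6188.8 CPM, and the groups lay apart. Of that remainder Mmrn1 made 5029.2 and 3056.0 CPM in the knockout libraries, against 1127.0 to 1705.8 CPM in the control libraries. The part of blood endothelial and stromal transcripts, or of the mix of sinus LECs, in the falls of Mrc1, Marco and Stab2 was not tested.

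**Figure D5:**
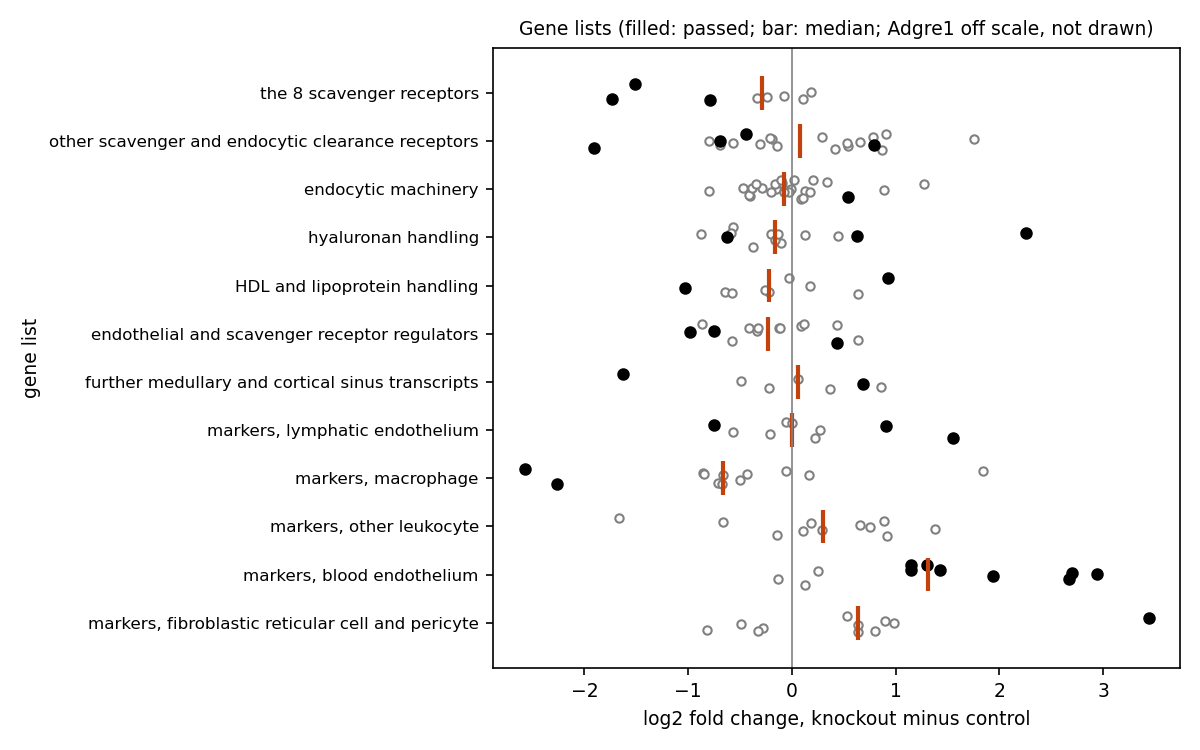
Log2 fold change, knockout minus control (horizontal axis), of each tested gene of the 8 scavenger receptors and 11 further lists, with filled points for genes past an adjusted p of 0.05 and a bar at each list's median. The scavenger receptors have 3 filled points, all below 0, and the blood endothelial markers 8, all above 0; Adgre1 is not drawn.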

How the data were processed

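RNA-seq was made from LECs sorted from lymph nodes, in 2 knockout and 3 control libraries. Per the labels' protocols, libraries came from SMART-Seq v4 cDNA and Nextera XT tagmentation, which keep no strand, and were read as short single reads. Copies of 1 molecule made by PCR cannot be recognised, so counting error is a lower bound on technical error. The authors deposited raw counts, 1 whole number per Ensembl gene and library. Per the submitters' processing notes, the build was mm10 and the tools were HTSeq 0.6.1, Bowtie2 2.1.0, TopHat2 2.0.14 and bcl2fastq 2.17.1.14, with settings not given in the sources used here. GENCODE symbols were found for 27648 of 27843 IDs.

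Genes were filtered with filterByExpr (minimum count 10), scaled by TMM and tested with edgeR 4.0.16 (R 4.3.3; robust quasi-likelihood F test, no replicate block, Benjamini-Hochberg threshold 0.05 over all genes). Standard errors (SE) were derived from the fold change and its F statistic, and 95% intervals from the SE. Totals were 52839375 to 70171307 counts. The scripts were tested on simulated data. Alternatives were other size factors, filters, DESeq2 1.42.0, limma-voom (limma 3.58.1), other quasi-likelihood settings, a replicate block, an exon length and GC offset, a threshold of 0.1 and each library left out. The receptors and gene lists were chosen with earlier results of these data known. Named are all 8 receptors and, per list, up to 6 genes that passed and 2 that did not, by smallest p, with the 5 nearest profiles of each receptor that passed. Some of the genes this names in marker lists are given by count only. A gene that the rule names is not reported here.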

Additional observations from a re-analysis of the deposited data

How the results depend on the processing

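Over all settings tried, the log2 fold changes of Mrc1, Marco and Stab2 stayed below 0. The 1150 genes called (516 higher, 634 lower) became 2720 with DESeq2 (1254 higher, 1466 lower) and 2546 at a threshold of 0.1 (1188 higher, 1358 lower), and 866 with the length and GC offset (474 higher, 392 lower), where 54.7% of the calls were higher, against 44.9% without it. With 1 library left out, 11 to 1736 genes were called, 2 to 784 higher and 9 to 1125 lower: 266, 173 and 11 without controls 1, 2 and 3, and 1736 and 1718 without knockouts 1 and 2. The receptors called lower then numbered 1 to 3. Mrc1 ranged from -1.85 to -1.64, Marco from -2.004 to -1.15 and Stab2 from -0.82 to -0.76. The cause was not tested. Of 41 other named genes that passed, 39 lost their call without control 3 and 2 (Tmem132e and Eln) kept it with each library left out.

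The labels do not say what libraries with the same replicate number share, so the numbers were not taken to pair the libraries. Deviations of libraries with the same number from their group means correlated at 0.04 (number 1) and -0.12 (number 2). The deviations of 2 knockout libraries mirror each other, so these values cannot show whether the numbers pair. With the replicate block 0 genes were called by edgeR (0 higher, 0 lower; 1245 higher and 1563 lower at an unadjusted p under 0.05), and with the block and the length and GC offset 2 were (0 higher, 2 lower). The receptors called lower numbered 0 in both. At an unadjusted p under 0.05 by edgeR, the block alone gave 0 receptors higher and 4 lower. The block with the offset gave 1 higher and 3 lower, against 1354 and 1174 over all genes. Number 3 is held by a control library alone, so in both fits control 3 has no knockout library to be compared with. Whether the calls were lost through the pairing or through having fewer libraries to compare was not tested. The block gave -1.85 for Mrc1, -1.55 for Marco and -0.82 for Stab2 (edgeR adjusted p = 0.070, 0.14 and 0.12), and with the offset -1.76, -1.68 and -0.65 (edgeR adjusted p = 0.084, 0.15 and 0.19). At 2 and 3 libraries per group, a p that misses the threshold does not show equal levels of Stab1, Msr1, Scarf1, Scarb1 or Colec12.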
